A study of Mus musculus with 26 samples.

Results

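Culture of the retina is the variable compared here, in single amacrine cells taken at postnatal day 5. The comparison set 5 cells from retinas kept for 5 days in culture, the cultured cells C6, D5, D3, D6 and C1, against 10 cells whose labels state no culture, the reference cells A1, A2, A5 to A8 and B1 to B4. These 15 of the series' 26 cells were chosen by their labels: age P5, the reporter pNdrg4, and culture stated or not. The labels do not say that the reference retinas were never cultured, so "reference" stands only for the missing statement. All 15 cells carried pNdrg4::GFP, a green fluorescent protein plasmid put into the retina at P0 by electroporation in vivo or ex vivo, and each was picked by its fluorescence after papain dissociation. The labels name no strain, sex, animal or number of retinas for either group. The RNA of each cell was copied into cDNA with an oligo dT primer, amplified by 35 cycles of PCR and hybridised to an Affymetrix Mouse 430 2.0 array. The 11 remaining cells of the series were all cultured and differed in reporter or age: 4 at P5 with pSynapsin, 2 at P4 with pNdrg4, 2 at P8 with pNdrg4, 2 at P8 with pSynapsin and 1 at E19 with pSynapsin.

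Amacrine cells are the inhibitory interneurons of the inner retina. Most release GABA, made by the glutamate decarboxylases Gad1 and Gad2, or glycine, which is taken up again by the transporter Slc6a9, and both transmitters are loaded into vesicles by Slc32a1. In the first postnatal week they extend neurites into the inner plexiform layer and begin to form synapses, and an explant keeps this tissue alive without its blood supply.

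No animal or culture was named, so each group counted as 1 sample. No test of a difference between the groups, p-value or standard error was therefore made from the cells, and every comparison below is a description of these 15 cells: their signals, how many of them detected a gene, and whether the groups' ranges overlapped. A signal of at least 1000 was called detected. Signals under 200 were set to 200 before taking log2, so a difference in which one group lies at 200 is smaller than the true one. A difference is always the mean log2 signal of the 5 cultured cells minus that of the 10 reference cells, and a range gives the lowest to the highest cell. Of 18193 genes measured, the 8570 detected in at least 2 of the 26 cells were compared.

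The libraries of the groups were not alike. Between 3049 and 3925 genes were detected in a cultured cell (median 3256) and between 1909 and 3513 in a reference cell (median 2361.5). The 100 strongest genes carried 9.47% to 13.4% of the signal in the cultured cells and 14.3% to 21.9% in the reference cells, with no overlap. The median difference of all 8570 genes was 0.31, and 0.08 after quantile normalization, which gives every cell the same distribution of signals. The 154 genes detected in all 15 cells had a median difference of -0.49, with 123 of them below 0, and of 0.17 after quantile normalization. Decreases of abundant genes therefore depended on the scaling, and the value after quantile normalization is given beside those that it moved by over 1.5 times. The names of the cultured cells begin with C or D and those of the reference cells with A or B, and any batch behind those letters cannot be told apart from culture.

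Pax6, the homeobox factor that all amacrine cells keep, was detected in 15 of 15 cells, at 17445 to 24744 in culture and 16603 to 62673 in the reference cells. Tfap2b, an AP-2 factor of amacrine cells, was detected in 4 of 5 and 9 of 10 cells, and Slc32a1 in 5 of 5 and 7 of 10 (2.18, but -0.74 with the median over its 4 probe sets). Ndrg4, the gene whose promoter drove the reporter, was detected in 0 of 15 cells, with a highest signal of 130 at its best probe set. None of 10 microglial markers measured was detected in any of the 15 cells. These markers went with the amacrine label in most cells, but Tfap2b was below detection in D6 (413) and B4 (at the floor of 200). B4 also detected 14 of 20 markers of progenitors and dividing cells, so the label was not established for every cell. The reporter's own gene gave no signal to check.

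The classes of amacrine cell were not drawn equally. Gad1 was detected in 1 of 5 cultured cells, C6 at 16149.5, and in 7 of 10 reference cells, where it ranged up to 28786. Gad2 was detected in 4 of 5 and 6 of 10 cells, so that 4 of 5 cultured and 8 of 10 reference cells held at least 1 of the decarboxylases. Slc6a9 was detected in 3 of 5 cultured cells, D5, D3 and C1 at 12899.6, 14042 and 23213, and in 3 of 10 reference cells. All 3 of those cultured cells also detected Gad2, as did 1 of the 10 reference cells. Slc6a5, the other glycine transporter, was detected in D3 and D6, up to 1755, and reached at most 61.2 in the reference cells. Cells with Slc6a9 and without Gad1 numbered 3 in culture and 2, B1 and B4, among the reference cells. This split is used below to compare cells alike in Slc6a9 and Gad1 only. B1 and B4 held 7 and 11 of 19 rod markers, and B4 also 14 of 20 markers of progenitors and dividing cells. A more similar class was therefore not shown.

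Sex-linked transcripts separated the groups as well. Xist, the RNA that coats the inactive X chromosome of female cells, gave signals of 16686, 31212, 25029, 23146 and 36652 in C6, D5, D3, D6 and C1, the order used for all cultured cells below, and at most 153 in the reference cells. A Y-linked gene, Eif2s3y or Kdm5d, was detected in 7 of 10 reference cells and 0 of 5 cultured cells, and A2, B1 and B3 had neither Xist nor a Y-linked signal. Apart from Xist, 288 X-linked genes had a median difference of 0.41 and 8263 autosomal genes one of 0.31, and 10.1% of the X-linked and 7.24% of the autosomal genes were higher by at least 2. Female origin and culture cannot be told apart in the 15 cells. The other 11 cultured cells, 5 with Xist and 6 without, are described below.

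**Figure D1:**
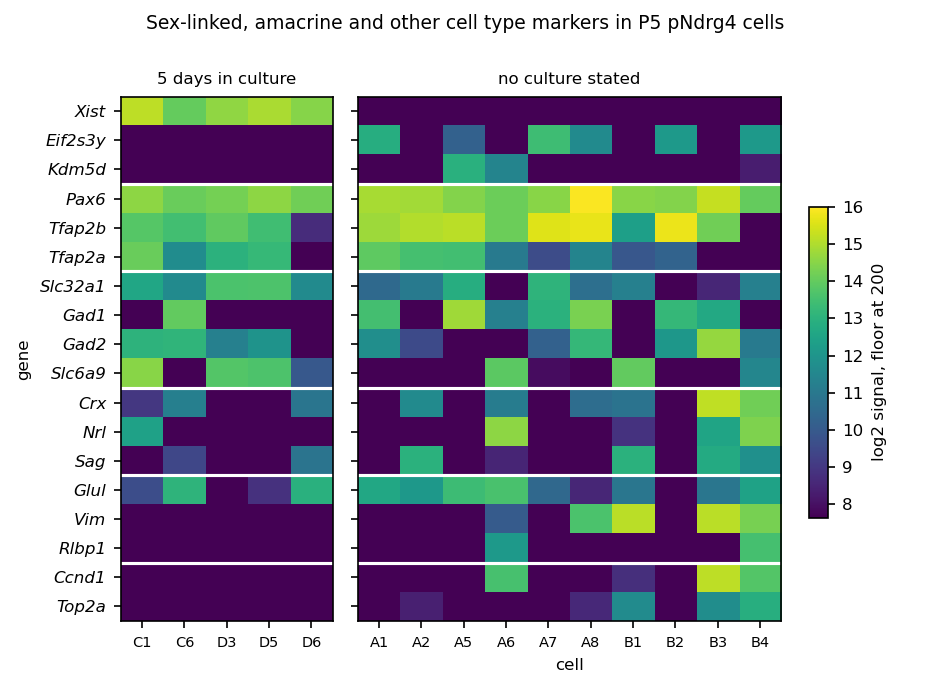
Log2 signal (colour, floor at 200) of sex-linked, amacrine, transmitter, rod, Muller glia and proliferation markers in the 5 cultured and 10 reference P5 pNdrg4 cells, 1 column per cell. Xist is strong in all 5 cultured cells and at the floor in all 10 reference cells, Pax6 is strong in all 15, and Ccnd1 is detected in reference cells A6, B3 and B4 alone.

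Markers of other retinal cells were unequal too, and whether their RNA came from other cells was not tested. Markers of rods were detected in 3 to 4 of 19 per cultured cell and 1 to 11 per reference cell, with a median of 4 in both groups. Their summed signal was 18765 to 29407 against 29131 to 118877, but such a sum can rest on 1 abundant gene. A1, with 1 of 19 rod markers detected, had a sum of 29131. The rod sums were not recomputed after quantile normalization. Markers of Muller glia were detected in 0 to 4 of 17 per cultured cell (median 2) and 1 to 8 per reference cell (median 3.5). Their summed signals were 964 to 25324 and 7447 to 73243. Markers of progenitors and dividing cells were detected in 2 to 4 of 20 and 1 to 14, the latter in B4, with a median of 4 in both groups. The glial filament gene Vim was detected in 0 of 5 and 5 of 10 cells, with a difference of -3.0, and Rlbp1, which defines Muller glia, in 0 of 5 and 2 of 10. Nrl, the defining rod factor, was detected in 1 of 5 and 3 of 10 cells. Cells A6, B1, B3 and B4 held 7 or more rod markers each. Without these 4 cells the median difference of the Muller glia markers moved from -0.94 to 0.015 and the difference of Vim from -3.0 to -1.0.

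More genes were higher than lower in the cultured cells. Of the 8570 genes, 631 (7.36%) were higher by at least 2 on the log2 scale and 127 (1.48%) lower by at least 2, while 2273 (26.5%) were higher and 776 (9.05%) lower by at least 1. After the shift of all genes by 0.31 was taken off, 388 were higher and 225 lower by at least 2, and after quantile normalization 508 and 192. Without the 4 rod-rich cells the counts were 785 and 211, of which 520 and 91 were among the 631 and 127. Of the 631 higher genes, 196 were detected in 5 of 5 cultured cells and 63 lay below 200 in all 10 reference cells. Of the 127 lower genes, 32 lay below 200 in all 5 cultured cells.

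A small set of genes divided with the label, detected in 5 of 5 cultured cells and in at most 1 of 10 reference cells. It held 21 genes (0.245% of those compared), of which 20 have a gene symbol that is not a clone name. Xist led them with a difference of at least 7.0. The others were genes of neurons, of RNA and protein handling, and of signalling, and 4 are given with each cell's signal. With fewer cells the rule is easier to meet, so leaving cells out can only keep or raise the count. It was 34 without C6, 42 without D3, 40 without D6, 34 without C1, 32 without A2 and 61 without the 4 rod-rich reference cells. The count rests on the scaling, since 6 genes met the rule after quantile normalization.

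Sphkap, a scaffold that tethers protein kinase A and binds sphingosine kinase, had signals of 4664, 12804, 23857, 11925 and 16687 in culture. Its reference signals ran from below 200 to 7324 with a median below 200, with B4 alone detected and above the cultured cell C6. The difference was 5.05, and 5.19 after quantile normalization. Slc24a3, a potassium-dependent sodium and calcium exchanger of neurons, had signals of 4530.0, 11844, 21303, 5531 and 1716 in culture. Its reference signals ran from below 200 to 7206 with a median below 200, again with B4 alone detected, for a difference of 4.49. Synpr, the synaptic vesicle protein synaptoporin, had signals of 20335, 2647, 9469, 1406 and 5222 in culture and ran from below 200 to 9798 with a median below 200 in the reference cells. Cell A6 alone detected it there, and the difference was 3.94. Mdm2, the ubiquitin ligase that turns over p53 and is itself induced by p53, had signals of 3967, 3448, 4459.6, 5504 and 1854 in culture and ran from below 200 to 21334 with a median below 200 in the reference cells. Only B1 detected it among them, at a level above all 5 cultured cells, and the difference was 3.44.

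The other genes of this set had differences of 2.20 to 4.72. Ipo4, an importin that carries proteins into the nucleus, was at 4.72, and Kbtbd7, an adaptor of a ubiquitin ligase, at 4.20. Genes acting on RNA or chromatin were Zc3h15 (3.85), the neuronal splicing regulator Srrm3 (3.81), the histone methyltransferase Nsd2 (3.46) and the RNA-binding protein Msi1 (2.20). Oxr1, which protects neurons from oxidative damage, was at 3.70, the helicase-interacting Wrnip1 at 3.62 and the deubiquitinase Usp10 at 3.03. The kinases Dgkh, which phosphorylates diacylglycerol, and Slk stood at 3.62 and 3.53, Fam32a at 3.61, the AMP deaminase Ampd2 at 3.05, the lipid transporter Abca2 at 2.40 and the glycosyltransferase B3galnt1 at 2.28.

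Separation without any overlap, with every cultured cell detected and above every reference cell, was found for 12 genes (0.14%). Xist and Ampd2 were the clearest: Ampd2 had signals of 3057, 2021, 1044, 1104 and 1739 in culture and at most 96.2 in the reference cells. Oxr1 followed with 4086, 1178, 2073, 9067 and 1608 in culture and at most 311 in the reference cells. Kbtbd7 lay at 2894 to 7745 and at most 918. Scamp5, a secretory carrier protein of synaptic vesicles, was detected in 3 of 10 reference cells and still did not overlap, with 8728, 9684, 10381, 4485 and 4831 in culture against a highest reference signal of 3696. The gaps of Mpp3, Fam32a, Dgkh and Msi1 were narrow, their lowest cultured signals being 1225, 1165, 1134 and 1028 and their highest reference signals 1204, 1041, 859 and 876. Nsd2, Slk and Srrm3 completed the set, which numbered 21 without C6, 21 without D6 and 32 without the 4 rod-rich cells. Such a count, too, can only stay or rise when cells are left out.

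In the opposite direction, 7 genes (0.0817%) were detected in 0 of 5 cultured cells and in at least 7 of 10 reference cells. Slc16a3, the transporter that exports lactate, had signals of at most 528 in culture and ran from below 200 to 29370.1 with a median of 8191 in the reference cells, for a difference of -3.97. Gadd45g, a stress and growth arrest gene, had signals of at most 169 in culture and ran from below 200 to 21174 with a median of 7061 in the reference cells, for a difference of -3.81. Pla2g6, a phospholipase A2, had signals of at most 265 in culture and ran from below 200 to 25296 with a median of 9572 in the reference cells, for a difference of -4.31. Each of the 3 genes was undetected in all 5 cultured cells but also in 2 or 3 of the reference cells, so their ranges overlapped. Lmo4, a LIM-only cofactor of amacrine transcription factors, was detected in 7 of 10 reference cells and reached 386 in culture, with a difference of -2.48. The polyadenylation factor Cstf3 (-3.53), the cohesin loader Mau2 (-3.03) and Ankzf1 (-2.83) were the remaining 3. The count was 15 without C6, 13 without D6 and 11 without C1, 4 without A2, B1 or A8, and 3 without A6, B3 or B4, and 51 after quantile normalization. Mau2 stood at 0.22 with the median over its 4 probe sets.

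**Figure D2:**
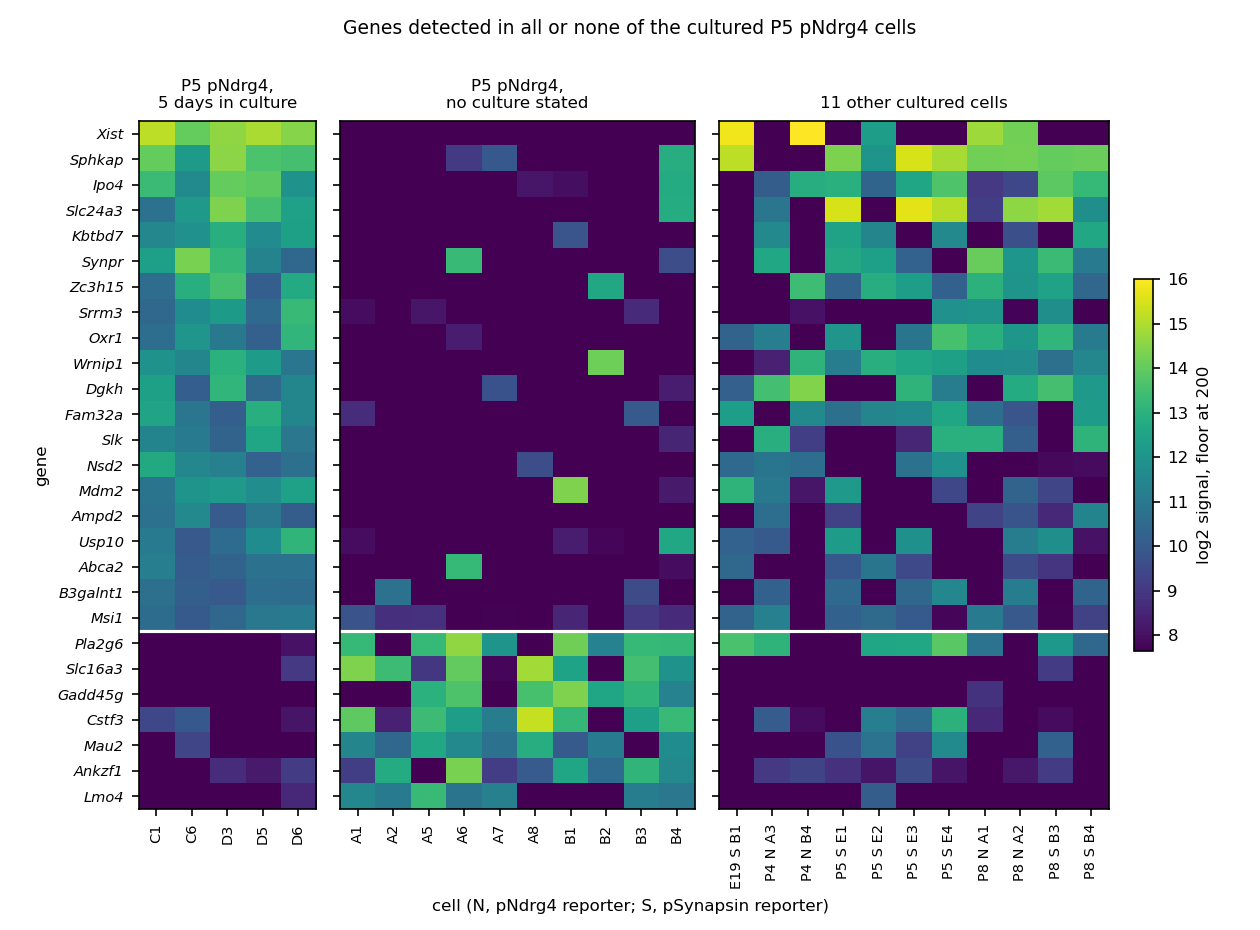
Log2 signal (colour, floor at 200) of 20 genes detected in all 5 cultured P5 pNdrg4 cells and at most 1 reference cell, above the white line, and of 7 genes detected in none of the cultured and at least 7 of the reference cells, below it, in all 26 cells. The 11 other cultured cells on the right detected 0 to 4 of the lower genes. Of the 20 genes other than Xist that met the upper rule, 1 clone-named gene not drawn included, they detected 7 to 14.

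In the 11 other cultured cells, median detection of these genes lay between the groups that defined them. The 11 cells entered only the choice of probe sets and the detection filter. Both sets were chosen for extremes, and cells outside the choice tend to fall between them, so no conclusion is drawn from this position. Over all genes, these cells detected 2306 to 4180 each, against 1909 to 3513 in the reference cells. The 20 genes other than Xist, the clone-named gene included, were found in 7 to 14 of 20 per cell (median 12), compared with 0 to 4 (median 1) in the reference cells that helped to define them. The 5 of these cells with Xist had 7 to 12 (median 9) and the 6 without Xist had 11 to 14 (median 13). Most of the cells without Xist carried pSynapsin and none was a P5 pNdrg4 cell, so the part of sex was not tested. The 7 genes not detected in the cultured P5 pNdrg4 cells were found in 0 to 4 per cell (median 1), compared with 4 to 7 (median 5) in the reference cells. Gene by gene, Oxr1, Sphkap, Wrnip1 and Zc3h15 were detected in 9 of 11 of these cells, Slc24a3 in 7, Mdm2 in 4 and Srrm3 in 3. Slc16a3, Gadd45g and Ankzf1 were detected in 0 of 11 and Lmo4 in 1 of 11, but Pla2g6 in 8 of 11. Reporter and age differ between these cells and the reference cells, and their part in the counts was not tested.

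Beyond these genes, the largest increases, where 60% or more of the cultured cells detected the gene, included Pnmal2 and Nhlh2. Pnmal2 had signals of 5538, 14238, 12452, 25241 and 10848 in culture and ran from below 200 to 12399 with a median below 200 in the reference cells, for a difference of 4.53. Nhlh2, a basic helix-loop-helix factor of developing neurons, had signals of 1291, 14375, 19202, 9351 and 11799 and ran from below 200 to 13757 with a median below 200 in the reference cells, for a difference of 4.21. Robo3, an axon guidance receptor of the roundabout family, was uneven among the cultured cells, with signals of below 200, 19196, 18196, below 200 and 33992. It was strong in the 3 cultured cells with Slc6a9 and not detected in the other 2 nor in any reference cell, where it reached 188, and the difference was 4.10. Epb41l3, a membrane skeleton protein (3.96), the translational regulator Cpeb2 (4.01) and the chromatin-associated Phf3 (4.35) were detected in 4 of 5 cultured cells and in 0, 1 and 0 of 10 reference cells.

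The largest decreases outside the 7 genes detected in no cultured cell were those of Ctxn1, Crym and Crabp1. Ctxn1, a small membrane protein of neurons, had signals of 2791, below 200, 2236, below 200 and below 200 in culture and ran from below 200 to 58033 with a median of 16965 in the reference cells, for a difference of -4.51. Crym, which binds thyroid hormone in the cytosol, stayed at or below 99.9 in culture and ran from below 200 to 42726 with a median of 13328 in the reference cells, for a difference of -4.09, or -2.32 without A6, B1, B3 and B4. Crabp1, a retinoic acid binding protein, was below detection in 4 of the 5 cultured cells and strong in the fifth, with signals of below 200, below 200, below 200, 43992 and below 200. The reference signals of Crabp1 ran from below 200 to 104267 with a median of 11793, and the difference was -3.53. Both genes were common in the other 11 cultured cells, Crym in 7 and Crabp1 in 8 of 11. Fxyd6 (-3.36), Ptpro (-3.34), Neurl4 (-3.33), Pacs1 (-3.32) and the potassium channel partner Kcnip1 (-3.32) followed.

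The genes of glycolysis and lactate were lower in the cultured cells. In animals these genes turn glucose into pyruvate and lactate, on which the retina draws heavily, and many are activated in low oxygen by hypoxia-inducible factors, which bind a short DNA motif with the core ACGTG or GCGTG. Of 18 genes of the list compared, 13 had a difference below 0, 8 were at or below -1 and 4 were at or above 1, and the list's median was -0.92, or -0.76 after quantile normalization, against 0.31 and 0.08 for all genes. These and the later list counts are to be read against the 26.5% and 9.05% of all genes that lay at or beyond 1 in each direction. The 5 members detected in all 15 cells had a median of -1.53, and of -0.89 after quantile normalization. The decrease of this list therefore did not depend on the choice between these scalings, and it was -0.65 without the 4 rod-rich reference cells.

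Uptake came first. Slc2a1, the glucose transporter GLUT1, was detected in 3 of 5 cultured and 7 of 10 reference cells, with signals of 2321, 2475, below 200, 15325 and below 200 in culture, a reference median of 11754 and a difference of -1.92. Hk1, the first enzyme, went the other way, with 1991, 13608, 1229.5, 13510.2 and 5329 in culture and from below 200 to 21862 with a median of 703 in the reference cells, for a difference of 1.83. Pfkp, a subunit of the rate-limiting phosphofructokinase, had signals of 10699.5, 1400.0, 6484, 30813 and 12462 in culture and ran from 5972 to 91399.8 with a median of 51830.1 in the reference cells. The groups overlapped, and the difference was -2.23, or -1.60 after quantile normalization. The liver-type subunit Pfkl was detected in 1 of 5 and 8 of 10 cells (-2.70). Aldoa, an aldolase, had signals of 7852, 4171, 11910.5, 17929 and 6351 in culture and ran from 4909 to 69370.5 with a median of 42057 in the reference cells, for a difference of -1.96, and Tpi1, triose phosphate isomerase, was at -1.53, or -0.89 after quantile normalization.

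At the lactate step, the isoforms of lactate dehydrogenase differed between the groups in opposite directions. Ldha, the form that favours making lactate, had signals of 8768, below 200, 9262, 19887 and 3429 in culture and ran from 14019 to 77659 with a median of 38717 in the reference cells. Only D6 among the cultured cells reached into the reference range, and the difference was -3.18, or -2.60 after quantile normalization. Ldhb, the form of oxidative tissues, had signals of 5186, 16415, 14131, 12307 and 8776 in culture and ran from below 200 to 10353 with a median of 1640.2 in the reference cells. It was detected in 5 of 5 and 5 of 10 cells, the ranges overlapped, and the difference was 3.35. Slc16a3, which carries lactate out of the cell, was among the genes detected in none of the cultured cells. Pdk1, the kinase that keeps pyruvate out of the mitochondrion, stood at 2.14, but at -1.0 with the median over its 4 probe sets and at -0.60 with the highest probe set of each cell, so its direction rests on the probe set.

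**Figure D3:**
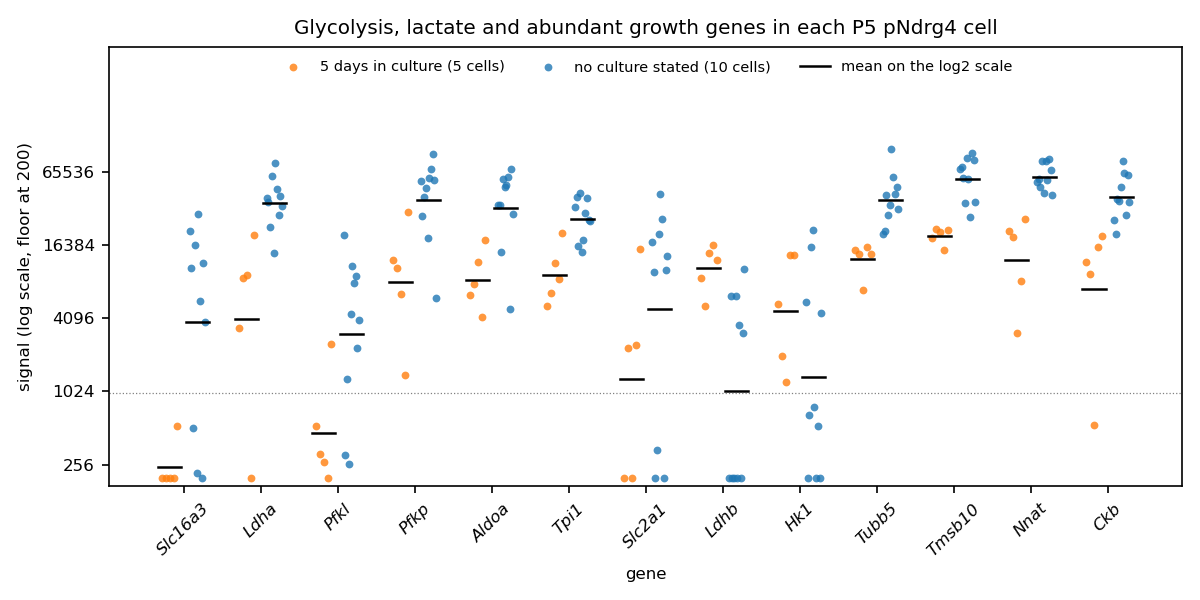
Signal (log scale, floor at 200) of 9 genes of glycolysis and lactate and of 4 abundant growth-related genes in each cultured (orange, 5 cells) and reference (blue, 10 cells) P5 pNdrg4 cell, with the mean on the log2 scale as a bar and the detection threshold of 1000 dotted. Slc16a3 is below 1000 in all 5 cultured cells, Ldhb is above 1000 in all 5, and Tubb5, Tmsb10, Nnat and Ckb do not overlap between the groups.

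Slc16a3, Ldha and Pfkp were lower together and Ldhb was higher, and their promoters are shown for the hypoxia motif. The 4 lines give 300 bases each, 250 before to 50 after the RefSeq transcription start (GRCm38.p6), 5' to 3' along the gene's strand. Capitals mark ACGTG and GCGTG on the printed strand and, for the other strand, CACGT and CACGC. The palindrome CACGTG counts as a match on both strands. Slc16a3 lies at chr11:120948817-120949116 (plus strand), Ldha at chr7:46845554-46845853 (plus), Pfkp at chr13:6648722-6649021 (minus) and Ldhb at chr6:142507908-142508207 (minus).
Slc16a3: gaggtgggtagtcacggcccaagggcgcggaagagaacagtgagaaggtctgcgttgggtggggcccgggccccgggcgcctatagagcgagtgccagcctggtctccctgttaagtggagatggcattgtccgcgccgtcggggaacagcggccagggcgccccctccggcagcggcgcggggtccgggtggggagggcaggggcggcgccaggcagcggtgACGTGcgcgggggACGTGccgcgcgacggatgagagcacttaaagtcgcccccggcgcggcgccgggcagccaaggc
Ldha: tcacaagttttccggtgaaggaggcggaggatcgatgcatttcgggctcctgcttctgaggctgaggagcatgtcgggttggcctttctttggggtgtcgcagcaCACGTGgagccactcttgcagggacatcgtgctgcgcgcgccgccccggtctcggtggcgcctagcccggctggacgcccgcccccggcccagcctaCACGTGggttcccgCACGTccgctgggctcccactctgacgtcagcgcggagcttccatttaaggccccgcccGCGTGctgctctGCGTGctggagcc
Pfkp: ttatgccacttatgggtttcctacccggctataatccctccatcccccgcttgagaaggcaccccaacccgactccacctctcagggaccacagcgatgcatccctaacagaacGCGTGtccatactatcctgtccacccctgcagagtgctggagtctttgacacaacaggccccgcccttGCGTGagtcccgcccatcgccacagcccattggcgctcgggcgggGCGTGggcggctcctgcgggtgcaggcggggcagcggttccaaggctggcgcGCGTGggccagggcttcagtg
Ldhb: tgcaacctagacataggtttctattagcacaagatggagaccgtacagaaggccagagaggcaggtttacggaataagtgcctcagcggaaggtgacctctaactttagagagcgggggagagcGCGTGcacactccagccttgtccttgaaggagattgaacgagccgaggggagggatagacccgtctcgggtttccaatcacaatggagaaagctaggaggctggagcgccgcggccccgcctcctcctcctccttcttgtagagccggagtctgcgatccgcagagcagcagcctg

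The Slc16a3 window held 2 matches of ACGTG and 0 of GCGTG, that of Ldha 5 and 2, that of Pfkp 0 and 4, and that of Ldhb 0 and 1. Of 32851 mouse promoters of the same length, 19.6% held ACGTG on either strand, 32.4% held GCGTG and 43.8% held at least 1 of them, and 0.183% had 5 or more matches of ACGTG. Of the 17 glycolysis genes with an entry, 13 had at least 1 match, namely 10 of the 13 lower and 3 of the 4 higher genes. Among the lower genes not printed, Aldoa, Tpi1 and Pkm held 0 matches and Pfkl held 1. The matches describe these letters only.

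Other genes of the hypoxia response did not share the size of the decrease. The 15 genes compared had a median of -0.32, with 2 at or above 1 and 2 at or below -1. Kdm3a, a histone demethylase induced by hypoxia, was detected in 1 of 5 and 9 of 10 cells, with signals of below 200, 558, 1098, 274 and below 200 in culture, a reference median of 2942 and a difference of -2.60. Ndrg1, induced by hypoxia and by differentiation, was found in 0 of 5 and 5 of 10 cells. Its difference was -3.43, and -1.08 without A6, B1, B3 and B4. Ddit4, which restrains the growth kinase mTOR, was higher at 1.81.

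Oxidative phosphorylation ran opposite to glycolysis. This machinery of the inner mitochondrial membrane had 37 genes compared, of which 17 were at or above 1 and 2 at or below -1, and its median was 0.75, or 1.23 after quantile normalization. Uqcrc2, a core subunit of complex III, had signals of 5116, 15637, 2056, 6176 and 5689 in culture and ran from below 200 to 17423 with a median of 637 in the reference cells. It was detected in 5 of 5 and 4 of 10 cells, with overlapping ranges and a difference of 2.53. The complex I subunits Ndufv1 (2.63), Ndufb9 (2.15) and Ndufb3 (2.11) and the complex IV subunits Cox8a (1.96) and Cox5a (1.77) were higher, whereas Uqcrc1 of complex III (-1.96) and Atp5o of the ATP synthase (-1.57, or -0.94 after quantile normalization) were lower. The 8 members detected in all 15 cells had a median of 0.08, or 0.84 after quantile normalization. Among the 10 highest differences of genes detected in all 15 cells, Cox6b1 (0.79), Cox6c (0.54) and Ndufa4 (0.54) were of this system. Within the 3 cultured and 2 reference cells that had Slc6a9 without Gad1, the list's median was instead -0.33, with Ndufb9 at -2.83 and Ndufb3 at -1.40, both of those reference cells, B1 and B4, being rod-rich.

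Among genes of protein turnover and folding, the proteasome list had the highest median. In the proteasome and ubiquitin list 9 of 23 were at or above 1 and 3 at or below -1, with a median of 0.94 (0.84 after quantile normalization). Psmd11, a lid subunit of the proteasome, had signals of 3915, 15091, 7379.5, 12084 and 6799 in culture and ran from below 200 to 8714 with a median below 200 in the reference cells, for a difference of 3.75. The base ATPases Psmc4 and Psmc3 stood at 2.88 and 2.39 and the core subunits Psma4 and Psmb5 at 2.83 and -1.75, so the complex did not move as one. Of 16 heat shock and chaperone genes, 5 were at or above 1 and 0 at or below -1 (median 0.52), led by the nucleotide exchange factors Hsph1 (3.11) and Hspa4 (2.52) and the chaperonin subunit Cct8 (2.5). The median of this list was -0.013 within the Slc6a9 cells. Of 29 lysosome and autophagy genes, 10 were at or above 1 and 2 at or below -1 (median 0.41), among them Lamtor1, which anchors mTOR at the lysosome (3.80), and the protease Ctsl (2.25), while the protease Ctsb stood at -1.55. The unfolded protein and integrated stress response was divided, with 3 of 21 at or above 1, 4 at or below -1 and a median of -0.10: the chaperone Hspa5 was at 2.04 and Manf, a secreted stress protein, at -2.55.

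The cytoskeleton and growth genes were lower as deposited, and most of that difference was absent after quantile normalization. Of 35 genes compared, 12 were at or below -1 and 2 at or above 1, and the median was -0.78, or -0.15 after quantile normalization. They also make up much of the 11 genes (0.128%) that were lower in culture without overlap. Nnat, an imprinted membrane protein of developing neurons, had signals of 18984, 8223, 3081, 26797 and 21606 in culture and ran from 42181 to 84458 with a median of 56606 in the reference cells, for a difference of -2.29, and -1.56 after quantile normalization. Ckb, brain creatine kinase, had signals of 9476, 15684, 541, 19520.0 and 11865 in culture and ran from 20200.2 to 79977 with a median of 38450.2 in the reference cells, for a difference of -2.52, and -1.87 after quantile normalization. Tubb5, a beta tubulin of growing neurons, had signals of 13734, 15894, 6993, 13883 and 14867 in culture and ran from 20153 to 102062 with a median of 38684 in the reference cells, for a difference of -1.63, and -0.87 after quantile normalization. These 3 genes were lower under both scalings.

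Tmsb10, which binds actin monomers, lay at 15075 to 22095 in culture and 27870.1 to 94209.9 in the reference cells, and its difference of -1.56 became -0.62. The differences of Actg1 (-1.32), Tuba1a (-1.28), Stmn1 (-1.16) and Eef1a1 (-1.14) became -0.30, -0.15, -0.14 and -0.17. The ubiquitin-conjugating enzyme Ube2e3 (-1.40), Eif4g2 (-1.31, or -0.55 after quantile normalization) and Tuba4a (-1.42, or -2.37) completed the 11. After quantile normalization 1 gene was lower without overlap, and after scaling to the 75th percentile 3 were. In the 11 other cultured cells, Tubb5 was below the lowest reference cell in 9, Actg1 in 8, Nnat, Eef1a1 and Stmn1 in 7, Ckb, Eif4g2 and Tuba1a in 6, Tuba4a and Ube2e3 in 5, and Tmsb10 in 4. Growth cone genes of lower level were also down: Stmn2 was detected in 1 of 5 and 6 of 10 cells (-2.46) and Gap43 in 0 of 5 and 5 of 10 (-1.83), though Stmn2 stood at 0.13 within the Slc6a9 cells. Tubb3, a neuronal tubulin, was at -1.91, while the RNA-binding Elavl3 of neurons and the kinesin Kif21a were higher at 1.98 and 1.73.

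The cytosolic ribosomal proteins showed how far the scaling reached, with a median of -0.44 as deposited that turned to 0.25 after quantile normalization. Of 28 genes compared, 21 were below 0 as deposited. Rps28 (2.72) and Rps2 (1.58) were higher under both, and Rpl38 and Rps29 were among the highest of the genes detected in all 15 cells (0.74 and 0.66). The housekeeping list moved likewise from -0.73 to -0.13. No direction can be given for the ribosomal genes as a group.

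**Figure D4:**
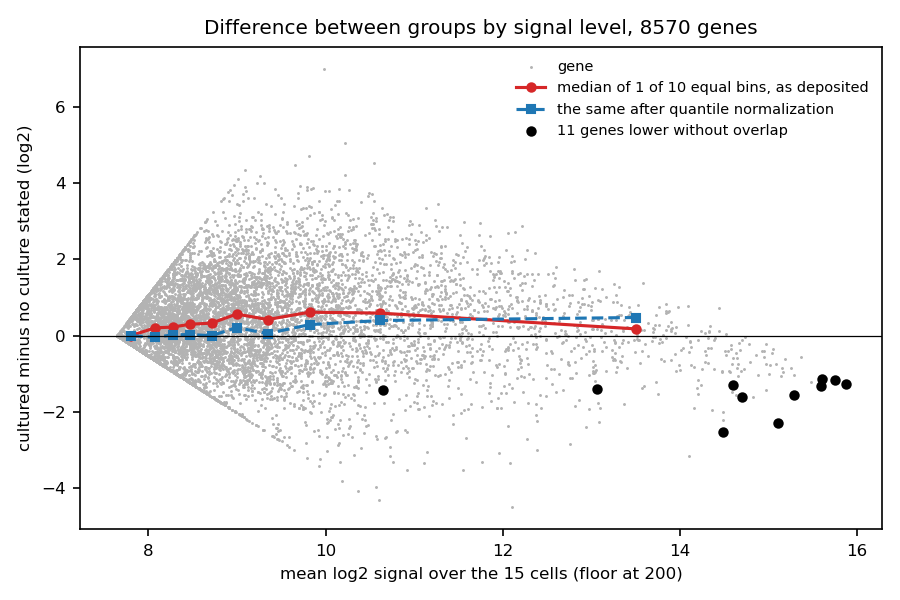
Difference between the groups (cultured minus reference, log2) against mean log2 signal over the 15 cells for 8570 genes, with the medians of 10 equal bins of genes as deposited (red) and after quantile normalization (blue). Of the 11 genes lower without overlap (black), all but Tuba4a lie in the strongest bin, whose median is 0.17 as deposited and 0.47 after quantile normalization.

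More presynaptic genes were higher than lower, as were more of all genes, 26.5% at or above 1 against 9.05% at or below -1. Of 27 presynaptic genes, 10 were at or above 1 and 1 at or below -1, and 24 were above 0, with a median of 0.67, or 0.59 after quantile normalization. In 10 bins of all genes by signal level, the median reached 0.61 as deposited and 0.47 after quantile normalization. The list was not matched for level. Nrxn3, a presynaptic adhesion molecule, had signals of 2088, 16259, 11486, 10802 and 8863 in culture and ran from below 200 to 21357 with a median below 200 in the reference cells, being detected in 5 of 5 and 3 of 10, for a difference of 3.72. Rph3a, an effector of vesicle release, was at 2.36, the fusion factor Napb at 2.20, the vesicle protein Sv2a at 2.12 and synapsin Syn2 at 2.06, the last detected in 2 of 5 and 0 of 10 cells. Stx1a, a syntaxin of the fusion machinery, was detected in 0 of 5 and 3 of 10 cells (-1.75).

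Of 23 postsynaptic genes, 8 were at or above 1 and 3 at or below -1 (median 0.59). The GABA and glycine receptor subunits Gabra3 (1.90) and Glra2 (1.88) and their scaffold Gphn (1.52) were on the higher side, and the AMPA receptor subunit Gria1, detected in 0 of 5 and 5 of 10 cells (-2.82), and the scaffold Dlg2 (-1.65) on the lower. Of 17 sodium and calcium channel genes, 5 were at or above 1 and 3 at or below -1 (median 0.60, but 0.000713 without the rod-rich cells), with the acid-sensing channel Asic2 at 2.89 and the calcium channel Cacna1d at 2.36. Of 13 potassium channel genes, 3 were at or above 1 and 0 at or below -1. The calcium-binding list was led by Cabp1, a modulator of calcium channels, at 3.08 and ended with Kcnip1. Of 29 axon guidance genes, 8 were at or above 1 and 2 at or below -1 (median 0.35, near that of all genes), with Robo3, the ephrin Efnb2 (2.39) and the adhesion molecule Nrcam (2.17) highest.

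**Figure D5:**
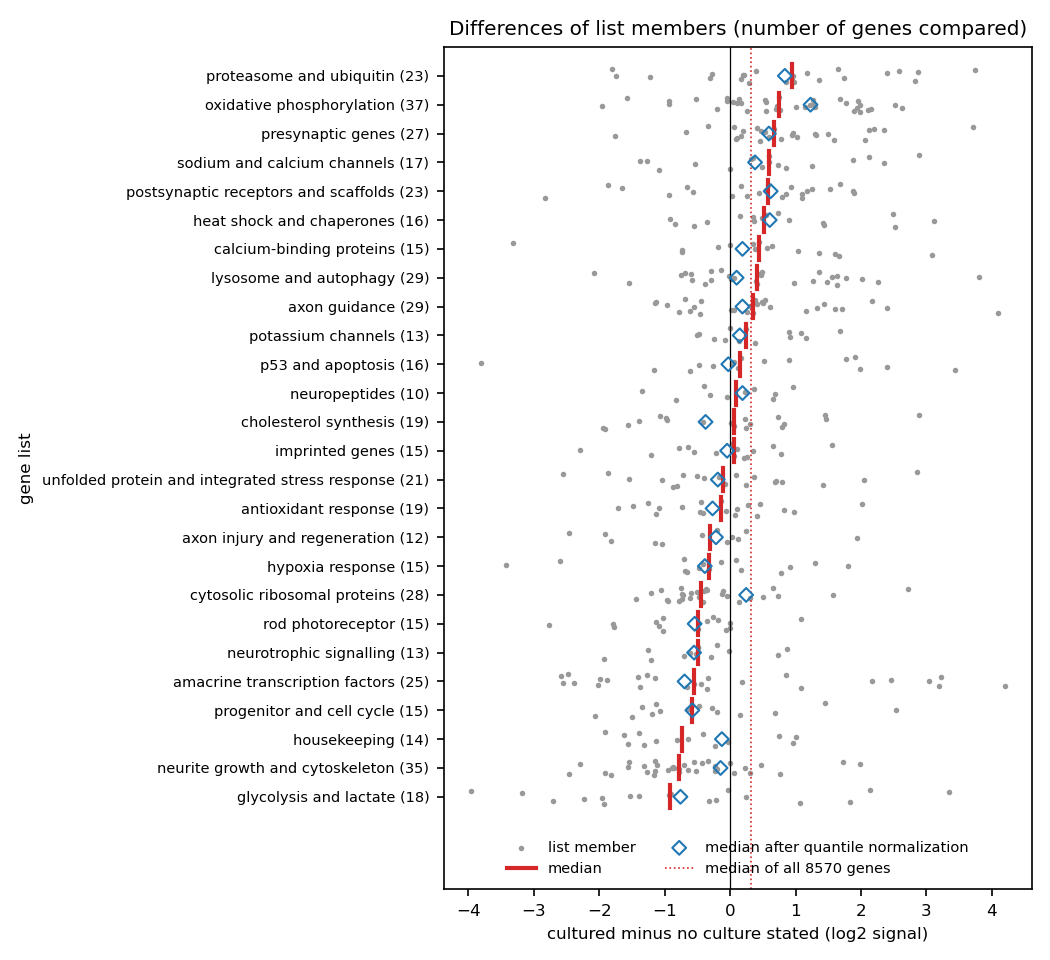
Differences (cultured minus reference, log2) of the members of 26 gene lists with at least 10 genes compared, with each list's median as deposited (red bar) and after quantile normalization (blue diamond), and the median of all 8570 genes, 0.31 (dotted). Proteasome, oxidative phosphorylation and presynaptic lists lie highest, glycolysis and lactate lowest, and the ribosomal list changes sign between the scalings.

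Transcription factors of amacrine cells split into sets that were higher and lower. Of 25 compared, 7 were at or above 1 and 11 at or below -1, with a median of -0.56. Besides Nhlh2, Six3, an eye field homeobox factor, had signals of 11155, 4086, 3552, 4941 and 5250.2 in culture and ran from below 200 to 12486 with a median of 291 in the reference cells, being detected in 5 of 5 and 2 of 10, for a difference of 3.22. Tcf4, a partner of neuronal helix-loop-helix factors, was below detection in C6 and had signals of below 200, 11868, 11152, 9456 and 11714, with from below 200 to 12186 with a median below 200 in the reference cells and a difference of 3.19. The early B-cell factors Ebf3 (3.05), Ebf4 (2.46) and Ebf1 (2.17) were each found in 2 or 3 of the 5 cultured cells, and 5 of 5 cultured and 2 of 10 reference cells had at least 1 of Ebf1 to Ebf4, a grouping made after the values were seen.

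On the lower side, Meis1 and Meis2, homeobox factors of GABAergic amacrine cells, were detected in 1 of 5 cultured cells each, in both cases C6, and in 7 and 6 of 10 reference cells (-2.55 and -2.39). C6 was also the cultured cell with Gad1. Pou3f3 was detected in 0 of 5 and 4 of 10 cells (-2.59), Neurod1 in 1 of 5 and 4 of 10 (-2.02), Nr4a2 in 0 of 5 and 3 of 10 (-1.88) and Sox2 in 0 of 5 and 3 of 10 (-1.99, and 0 without the 4 rod-rich cells). Within the Slc6a9 cells without Gad1, the difference of Meis2 was -3.25, those of Meis1, Pou3f3 and Nr4a2 were -0.95, 0.00 and 0.00, those of Nhlh2 and Six3 3.42 and 3.46, and that of Tcf4 0.39. Class, culture and the rod marker signal of B1 and B4 cannot be told apart for the genes that lost their difference there.

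Survival and stress genes moved singly. In the p53 and apoptosis list, 5 of 16 were at or above 1 and 2 at or below -1, with a median of 0.15, or 0.68 without the rod-rich cells. Next to Mdm2, the anti-apoptotic Mcl1 had signals of 3668, 5775, 4158, 1091 and 6357 in culture and ran from below 200 to 38767 with a median below 200 in the reference cells, detected in 5 of 5 and 2 of 10, for a difference of 2.40. Bcl2l1, which blocks cell death at the mitochondrion, was at 1.99, the pro-apoptotic Bad at 1.77 and the caspase inhibitor Xiap at 1.91. In the neurotrophic list 0 of 13 were at or above 1 and 3 at or below -1 (median -0.50), with the growth factor receptor Igf1r at -1.93. Of 12 axon injury genes, 1 was at or above 1, Stat3 at 1.93, and 5 at or below -1. Of 9 immediate early genes compared, 2 were at or above 1 and 3 at or below -1: Ier5 was at 3.04 and Dusp1, a phosphatase induced by stress, at -1.57.

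The remaining lists were mixed. Antioxidant genes had a median of -0.14, with Gstp1 at 2.02, or -0.46 within the Slc6a9 cells, and catalase, Cat, at -1.72. Cholesterol synthesis genes had a median of 0.06, with the cholesterol exporter Abca1 at 2.89 and the synthesis enzymes Hmgcs1 and Sqle at -1.91 and -1.57. Imprinted genes had a median of 0.06 and neuropeptides one of 0.09. Antigen presentation genes disagreed, H2-K1 being at 2.31, but at -2.51 within the Slc6a9 cells, and H2-D1 at -2.08, and these genes are close copies whose probe sets may share RNA.

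The cultured cells resembled one another more than the reference cells did. Over the 8570 genes, the Spearman correlation between pairs was 0.333 to 0.407 among cultured cells (10 pairs, median 0.374), 0.246 to 0.335 among reference cells (45 pairs, median 0.287) and 0.243 to 0.342 between the groups (50 pairs, median 0.297). These correlations run across genes, share the array and the filter, and rise with the number of genes detected, which was higher in culture. The most similar of the 14 others was in the own group for 5 of 5 cultured and 8 of 10 reference cells. Correlations between the cultured P5 pNdrg4 and the cultured P5 pSynapsin cells, at 0.334 to 0.405 (20 pairs, median 0.354), were in the range seen among the cultured pNdrg4 cells.

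Every cell also had genes of its own, detected in it and in none of the other 14. They numbered 66 to 147 in the cultured and 39 to 139 in the reference cells. The strongest in culture were Zfhx3, a large homeobox factor, in C6 at 14287, Rnf168, a ubiquitin ligase of DNA repair, in D5 at 12278, Slc12a9 in D3 at 11978, the noncoding RNA Dancr in D6 at 17449 and Insm1, a factor of neuronal and endocrine progenitors, in C1 at 10048. In the reference cells they included Cartpt, a neuropeptide precursor, in A5 at 63355, Wfs1, a membrane protein of the endoplasmic reticulum, in A8 at 62947, the glutamate transporter Slc1a6 in B1 at 35036, and Uhrf1, a DNA methylation factor of dividing cells, in B4 at 25396.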

How the data were processed

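The authors' deposited intensity values, 1 signal per probe set and cell with a mean of 500 after trimming, come from MAS5 per the submitters' processing notes, in a version not given in the sources used here. Of 45101 probe sets, 34958 had 1 gene in the platform annotation, 932 several and 9211 none, and only the first kind was named. For each of 18193 genes the values are those of its strongest probe set, by mean log2 signal (floor 200) over 26 cells. Since 35 PCR cycles amplify 1 cell's RNA unevenly, a signal under 1000 was not read as absence. The precision is limited by the number of retinas behind the 5 and 10 arrays, which the labels do not give.

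Groups came from the labels. Cells are not replicates of a culture, so no test between groups was run, and Dixon's gap ratio only picked out single cells. Members and gene lists were chosen with earlier results of these data known. Named genes are those detected in all or none of the cultured cells against at most 1 or at least 7 of the others, the 12 largest differences in each direction, the 10 largest among genes detected in all 15 cells, those without overlap, list members beyond 1.5 with defining markers, and the 3 strongest genes of single cells. The code was tested on simulated data with shifts planted in strong genes and a spread smaller than that of many real genes. That checks the computation only and does not measure how reliable the calls are in these cells. Alternatives covered floors, thresholds, probe set choice, scaling, filters and left-out cells. Python 3.11.15, numpy 2.4.6, pandas 2.3.3 and scipy 1.17.1 were used, and promoters are RefSeq's.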

Additional observations from a re-analysis of the deposited data

Results flagged for a closer look

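A cell was singled out where it stood far from the others of its group by Dixon's gap ratio at the 95% level, over 164 pairs of a group and a measure. Chance gives about 1 in 20 such groups where the measures were not selected. Many genes looked at were named because at most 1 reference cell or no cultured cell detected them. That choice makes gaps by itself, so the number of flags cannot be read against this rate. In all, 27 values stood apart, all in the cells named below, some because all others of the group lay at the floor of 200. Their causes were not tested.

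Reference cell B4 detected 3513 genes, more than any other reference cell, and had a mean log2 signal of 11.5 over the progenitor and cell cycle genes. It alone among the reference cells detected Ipo4 (7034) and Slc24a3 (7206) and had the highest Sphkap (7324), while Tfap2b and Kdm3a lay at the floor of 200 in it. B3 stood out in the neuropeptide genes with a mean log2 signal of 11.9. A6 had the high Synpr (9798) and Oxr1 (311) and Ctxn1 at the floor of 200, and B1 had the high Mdm2 (21334) and Kbtbd7 (918).

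Among the cultured cells, C6 alone detected Gad1 (16150) and Meis2 (14117), and it had the lowest Nhlh2 (1291) and Tcf4 at the floor of 200. D6 was highest for the glycolysis genes, with a mean log2 signal of 12.6, alone detected Crabp1 (43992), and was lowest for Tfap2b (413). It also carried the faint highest signals of Slc16a3 (528), Lmo4 (386), Pla2g6 (265) and Pou3f3 (253). D3 had the lowest Tubb5 (6993) and Ckb (541), and C1 had Epb41l3 at the floor of 200.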

How the results depend on the processing

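No paired analysis was possible because the cell labels are names and pair no cells. With 5 and 10 cells and no named animal, none of the counts carries an error, and weak signals limit what can be seen below 1000. The 631 higher and 127 lower genes became 1418 and 285 with a floor of 50, 189 and 60 with a floor of 500, 353 and 83 with the median over probe sets, 1731 and 229 with group medians, and 388 and 225 after subtracting the median of all genes. Quantile normalization gave 192 lower genes, and 467 of its 508 higher genes were among the 631. The 21 genes on in culture became 8 with detection at 2000, 11 with the median over probe sets and 6 after quantile normalization. The 7 genes off became 4 with detection at 500, 3 with the median over probe sets and 51 after quantile normalization. Of the genes without overlap, 3 were higher with detection at 2000 and 2 with the median over probe sets, and 1 was lower after quantile normalization and 3 after 75th percentile scaling. In the 3 and 2 Slc6a9 cells without Gad1, where few cells make extremes common, counts were 1233 higher, 1010 lower, 391 and 476 without overlap, 227 on and 155 off. Without A6, B1, B3 and B4, an alternative chosen after seeing the data, 211 were lower, 32 and 21 did not overlap, and 61 were on. Leaving out 1 cell at a time gave 604 to 820 higher, 131 to 186 lower, 12 to 21 and 11 to 16 without overlap, 22 to 42 on and 3 to 15 off. With cells left out, the counts on and without overlap can only stay or rise.

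Signs turned as follows, and the cause was not tested. With the median over probe sets, GABA synthesis and Slc32a1 stood at -0.74, Mau2 at 0.22 and Pdk1 at -1.0, and with the highest probe set Pdk1 stood at -0.60. Genes detected in at least 5 cells gave the progenitor list 0.15. Within the Slc6a9 cells, oxidative phosphorylation stood at -0.33, chaperones at -0.013, the ganglion cell list and Stmn2 at 0.13, Gstp1 at -0.46, H2-K1 at -2.51, Ndufb3 at -1.40 and Ndufb9 at -2.83. Without the rod-rich cells the cone list stood at 0.17 and the Muller glia list at 0.015. The other 5749 gene values and 1044 list values kept within the spread of the cells, and 119 and 44 moved further. Signs were compared for genes differing by 2 or more and lists by 0.5 or more.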

Other observations

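Among the genes detected in all 15 cells, several that no list held were lower in culture. Jpt1, a microtubule-associated protein, had a difference of -2.01 (-1.40 after quantile normalization), the cytokine Mif one of -1.89 (-1.38) and Tpt1, the translationally controlled tumor protein, one of -1.62 (-0.86). All 3 were detected in 11 of the 11 other cultured cells. The imprinted noncoding RNA Meg3 (0.26, and 1.0 after quantile normalization) and the aldehyde reductase Akr1a1 (0.27 and 1.08) were on the higher side.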
